A study of Mus musculus with 24 samples.

Results

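The BH3-only genes encode the members of the Bcl-2 family that share only the BH3 helix with their relatives and that start the mitochondrial pathway of cell death. All 8 genes chosen by symbol for this report, *Bbc3*, *Pmaip1*, *Bcl2l11*, *Bid*, *Bad*, *Bik*, *Bmf* and *Hrk*, were found among the 21671 genes listed for every sample and were taken as a family, without a threshold on measured values. RNA had been sequenced from splenic B cells, isolated with beads against B220, and from the cells that remained after their depletion (non-B cells, enriched in T cells) of C57/Bl6 mice of 8 weeks of age. Mice were *Trp53*+/+ or constitutively *Trp53*-/- and were either left unstressed (mock) or irradiated over the whole body with 7 Gy (IR) and studied after 4 h. Each of the 8 groups of cell type, genotype and treatment held 4 *Trp53*+/+ or 2 *Trp53*-/- samples, 24 in all. The study asked how B and non-B cells answer to p53 after DNA damage, and here the question is which initiators of apoptosis took part in that answer, in which cells, and whether *Trp53* was needed.

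BH3-only proteins are kept in check by the pro-survival members of the family (Bcl2, Bcl-xL, Mcl1, A1), whose groove binds the BH3 helix. When BH3-only proteins accumulate they occupy that groove, or bind Bax and Bak directly, and the pores that Bax and Bak then form in the outer mitochondrial membrane release cytochrome c, which assembles the apoptosome with Apaf1 and activates caspases. Each BH3-only protein reports another kind of stress: PUMA (*Bbc3*) and NOXA (*Pmaip1*) are classical targets of p53, BIM (*Bcl2l11*) sets the survival of lymphocytes, BID is cut by caspases downstream of death receptors, BAD is held by phosphorylation under growth factor signals, BMF is tied to the cytoskeleton, BIK resides at the endoplasmic reticulum, and HRK is known mainly from neurons.

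A p53 site close to the start of *Bbc3* is well known, and its sequence is shown for this reason before the values. The p53 consensus was searched from 5000 bases before to 2000 bases after the 5′ end of each of 22238 protein-coding genes, on mm9 (NCBIM37). It was taken as a pair of adjoining units of 10 bases with no spacer, with the C and the G in the core of both units fixed, and since it is its own reverse complement both strands were covered. The site of *Bbc3* lies at chr7:16894835-16894854 (+ strand), centred at -121 from the 5′ end of the gene (chr7:16894965-16903554, + strand), and differs from the consensus at 3 bases. The capitals mark the fixed core bases.
Bbc3 site: ctgCaaGccccgaCttGtcc
In its surroundings, chr7:16894785-16894904 on the + strand, the capitals mark the whole site of 20 bases.
Bbc3 promoter: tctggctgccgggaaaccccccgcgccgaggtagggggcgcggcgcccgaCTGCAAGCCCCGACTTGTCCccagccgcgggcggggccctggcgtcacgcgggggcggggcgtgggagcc
A match with at most 3 mismatches was found in 29.41% of all windows, so that a match of this quality is common. The best match of *Pmaip1* had 2 mismatches, a level reached by 7.06% of all windows. The best matches of *Bid*, *Bad*, *Bik* and *Hrk* had 4 mismatches, and those of *Bcl2l11* and *Bmf* had 5, and no more is said by this than that these letters are not within these windows.

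Levels are given as deposited, in RPKM, that is, reads per kilobase of gene scaled to reads on exons. The reads behind each sample were estimated from the steps of the lowest values at 4.73 to 10.93 M (mega) reads, with a median of 8.73 M. At this depth 1 read on *Bbc3* is worth an RPKM of 0.0456 to 0.105. *Bbc3*, *Pmaip1*, *Bcl2l11*, *Bid*, *Bad* and *Bmf* rested on about 31 to 3388 reads in each sample, whereas *Bik* rested on about 3 to 24 and *Hrk* on 0 to 9. Libraries were not stranded. In the gene models of GENCODE the exons of *Bid* and *Bad* overlap genes on the other strand, *Bcl2l13* and *Gpr137*. Reads in the shared exons thus cannot be assigned with certainty. The UCSC gene models used by the study were not checked for this overlap.

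The labels were checked first. *Trp53* itself stood at 21.6 to 25.0 RPKM in unstressed *Trp53*-/- samples and at 43.4 to 49.5 in unstressed *Trp53*+/+ samples. A gene-level value does not isolate the deleted part, and where in the gene these reads lay was not tested. After IR *Trp53* stood at 40.5 to 41.8 RPKM in *Trp53*-/- against 58.7 to 65.8 in *Trp53*+/+ B samples. In irradiated non-B samples the genotypes overlapped, with 34.6 and 36.4 against 35.0 to 38.6 RPKM, so that *Trp53* does not separate the genotypes there. Of the 12 genes listed as p53 response checks, 11 of 11 tested rose after IR in *Trp53*+/+ B cells (median log2 fold change 2.71, all genes 0.01). In *Trp53*+/+ non-B cells 12 of 12 rose (median 1.61, all genes -0.03). Against this, 2 rose and 2 fell in *Trp53*-/- B cells and 1 rose in *Trp53*-/- non-B cells. The list was written with earlier results of these data known, so that these counts are no independent check of the labels. *Perp* was tested in non-B cells only because irradiated *Trp53*+/+ samples exceeded 1 RPKM (1.56 to 2.22, unstressed at most 0.999). Its passing there thus depended on the rise itself, and in B cells it was not tested. All 8 B cell markers were higher and all 7 T cell markers in the files lower in unstressed *Trp53*+/+ B cells than in non-B cells. Their summed RPKM was 888 to 1098 for B cell markers in B samples against 219 to 621 in non-B samples, and 37.0 to 71.5 for T cell markers in B samples against 271 to 572 in non-B samples, so that markers of each population were present in the other. Neutrophil markers stood at 344 to 706 summed RPKM in non-B samples, and the part of these cells in the non-B values of the BH3-only genes was not tested. In bulk samples fewer cells of a type and less RNA per cell cannot be told apart.

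Several irradiated *Trp53*+/+ libraries stood apart from the others. The 1409 olfactory and vomeronasal receptor genes had a mean of 0.064 to 0.130 RPKM in unstressed samples. Of these genes, unstressed samples listed 5.25% to 9.08% above 0, and irradiated *Trp53*-/- samples 6.60% to 12.99%. The share was 36.6%, 47.3%, 6.81% and 15.8% in the 4 irradiated *Trp53*+/+ B samples and 24.6%, 8.38%, 51.2% and 35.8% in the 4 irradiated *Trp53*+/+ non-B samples. The mean RPKM of these genes stayed between 0.064 and 0.304 in all 24 samples. Their part in the results was not tested beyond leaving out the 6 samples over 15% or adding a covariate to the model. This receptor covariate was the log2 mean RPKM of these genes in each sample, and not the share above 0.

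After IR, 3 of the 8 BH3-only genes rose in *Trp53*+/+ B cells, *Bbc3*, *Pmaip1* and *Bcl2l11*, and *Bmf* fell. The same 3 genes were called up in *Trp53*+/+ non-B cells with smaller fold changes, and none of them was called in *Trp53*-/- cells of either type. *Bid*, *Bad*, *Bik* and *Hrk* were not called in *Trp53*+/+ cells. Calls were made with limma on log2(RPKM + 0.5), with p-values adjusted over all genes tested (Benjamini-Hochberg), and a call needed an adjusted p under 0.05 and a log2 fold change beyond 0.58 in either direction, limits taken from the study. *Hrk* did not pass the filter of an RPKM above 1 in at least 1 *Trp53*+/+ sample, so that 7 of the 8 members were tested. Across all 13821 genes tested in *Trp53*+/+ B cells, 12.5% were called up and 12.2% down, and in *Trp53*+/+ non-B cells 5.74% of 14018 genes were called up and 4.11% down. Members called up were thus 3 of 7 beside 12.5% in B cells and 3 of 7 beside 5.74% in non-B cells, and the 7 members had a median log2 fold change of 0.40 in B and of 0.36 in non-B samples.

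**Figure D1:**
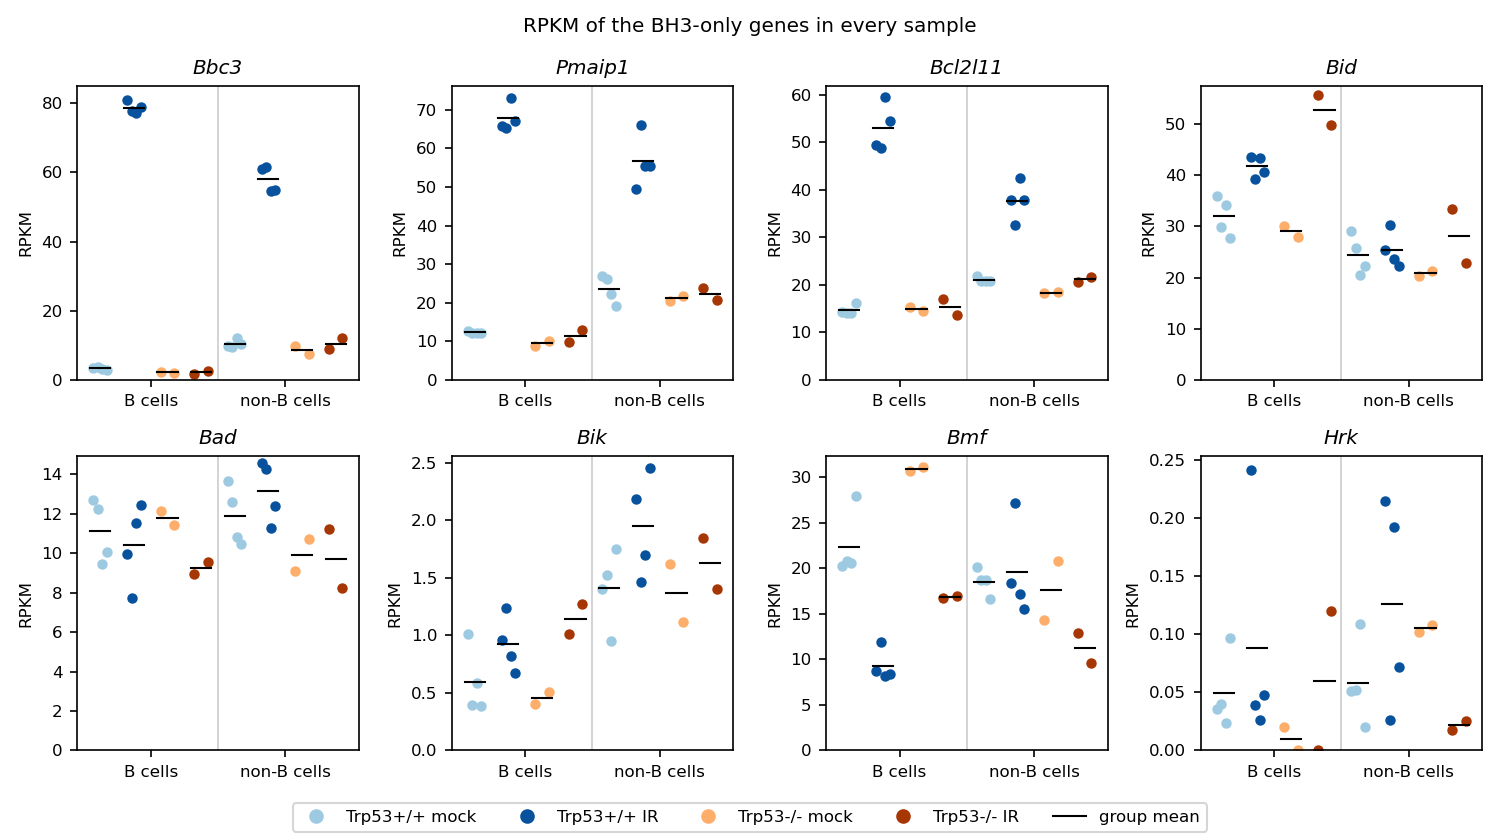
RPKM (y axes, linear, one scale per gene) of the 8 BH3-only genes in each of the 24 samples, by cell type, genotype and treatment, with a line at the group mean. *Bbc3*, *Pmaip1* and *Bcl2l11* are high only in the irradiated *Trp53*+/+ samples (dark blue), with the lowest of these samples at 54.5, 49.4 and 32.5 RPKM.

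*Bbc3*, which encodes PUMA, an inhibitor of all pro-survival members of the family, changed the most. In *Trp53*+/+ B cells it stood at 3.54, 3.78, 3.25 and 2.95 RPKM in the mock samples and at 81.0, 77.6, 77.1 and 78.9 after IR. In *Trp53*+/+ non-B cells the mock samples had 9.74, 9.43, 12.3 and 10.3 RPKM and the irradiated ones 60.9, 61.6, 54.5 and 55.1. No irradiated sample came near a mock sample in either cell type, and the spread within each group was small (78.7 ± 1.75 RPKM, SD, n = 4, in irradiated B cells). The log2 fold change was 4.36 in B cells (standard error 0.11, limma adjusted p = 5.6e-11) and 2.42 in non-B cells (standard error 0.12, limma adjusted p = 2.4e-07). This placed *Bbc3* at rank 16 of 13821 genes by fold change in B cells and at rank 38 of 14018 in non-B cells.

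Without *Trp53* these levels did not move beyond their spread. The *Trp53*-/- B samples had 2.37 and 2.01 RPKM of *Bbc3* unstressed and 1.78 and 2.71 after IR, and the *Trp53*-/- non-B samples had 9.72 and 7.55 unstressed and 8.88 and 12.1 after IR. All 4 irradiated *Trp53*-/- values thus lay far under the lowest irradiated *Trp53*+/+ value of 54.5 RPKM. The *Trp53*-/- log2 fold change was 0.01 in B cells (95% interval -0.34 to 0.36) and 0.26 in non-B cells (95% interval -0.11 to 0.63). Its difference between genotypes, tested itself, was 4.34 in B cells (limma adjusted p = 4.2e-08) and 2.17 in non-B cells (limma adjusted p = 0.00019).

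*Pmaip1* encodes NOXA, which binds chiefly Mcl1 and A1. In *Trp53*+/+ B cells it stood at 12.8, 12.1, 12.2 and 12.2 RPKM unstressed and at 65.7, 65.2, 72.9 and 67.1 after IR. The non-B samples of this genotype had 27.0, 26.1, 22.2 and 19.1 RPKM unstressed and 49.4, 66.1, 55.5 and 55.5 after IR. Groups were fully apart in both cell types, although the unstressed level was higher in non-B cells. The log2 fold change was 2.41 in B cells (standard error 0.08, limma adjusted p = 3.5e-10) and 1.25 in non-B cells (standard error 0.12, limma adjusted p = 4.9e-05). Without *Trp53* the B samples had 8.84 and 10.2 RPKM unstressed and 9.91 and 12.8 after IR, and the non-B samples 20.6 and 21.8 unstressed and 23.9 and 20.6 after IR. The fold changes of the genotypes differed by 2.17 on the log2 scale in B cells (limma adjusted p = 6.4e-07) and by 1.18 in non-B cells (limma adjusted p = 0.0074).

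*Bcl2l11* encodes BIM, which binds all pro-survival members and is needed for the removal of self-reactive lymphocytes. Its level in *Trp53*+/+ B cells was 14.3, 14.2, 14.01 and 16.2 RPKM unstressed and 49.4, 48.8, 59.5 and 54.5 after IR. In *Trp53*+/+ non-B cells it was 21.8, 20.8, 20.8 and 20.7 RPKM unstressed and 37.7, 32.5, 42.4 and 37.8 after IR. Again the groups did not overlap. The log2 fold change was 1.82 in B cells (standard error 0.09, limma adjusted p = 7.9e-09) and 0.82 in non-B cells (standard error 0.08, limma adjusted p = 5.1e-05). With the receptor covariate in the model the value in non-B cells was 0.576, just under the threshold of 0.58. *Trp53*-/- B samples had 15.4 and 14.5 RPKM unstressed and 17.0 and 13.6 after IR, and *Trp53*-/- non-B samples 18.2 and 18.5 unstressed and 20.6 and 21.7 after IR.

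The difference of *Bcl2l11* between genotypes held in B cells under every setting run and was less firm in non-B cells. The difference between genotypes was 1.79 on the log2 scale in B cells (limma adjusted p = 6.9e-06). It was 0.62 in non-B cells (limma adjusted p = 0.022). Without the samples with over 15% of receptor genes it was 0.42. This left 1 irradiated *Trp53*+/+ non-B sample, the one with the lowest level of 32.5 RPKM. With the receptor covariate in the model the difference was 0.39 (limma adjusted p = 0.14). Leaving out any 1 of the 4 *Trp53*-/- non-B samples also brought it above 0.05, with adjusted p between 0.054 and 0.099. Under the rule of the study, by which a called gene is p53-dependent when its fold change in *Trp53*+/+ cells is at least 1.5 times that in *Trp53*-/- cells, *Bbc3*, *Pmaip1* and *Bcl2l11* passed in both cell types. Their ratios of fold changes were 20.3, 4.50 and 3.46 for B samples against 4.48, 2.27 and 1.53 for non-B samples, so that *Bcl2l11* in non-B cells lay next to the limit.

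*Bmf*, whose protein can be held at the actin cytoskeleton and which binds several pro-survival members, moved the other way in B cells. In *Trp53*+/+ B cells it stood at 20.2, 20.8, 20.5 and 27.9 RPKM unstressed and at 8.69, 11.9, 8.17 and 8.37 after IR. All irradiated samples were lower than all mock samples, and the log2 fold change was -1.23 (standard error 0.12, limma adjusted p = 5.6e-06). The fall was also present in *Trp53*-/- B cells, from 30.6 and 31.1 RPKM to 16.8 and 16.9, with a log2 fold change of -0.85 (standard error 0.18, limma adjusted p = 0.0021). The difference between the genotypes was -0.37 (95% interval -0.84 to 0.10, limma adjusted p = 0.26).

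Non-B cells gave another picture for *Bmf*. *Trp53*+/+ samples had 20.1, 18.7, 18.7 and 16.6 RPKM unstressed and 18.4, 27.2, 17.2 and 15.6 after IR, which overlap. *Trp53*-/- non-B samples had 14.4 and 20.8 RPKM unstressed and 12.9 and 9.58 after IR, a log2 fold change of -0.62 (95% interval -1.15 to -0.08) that did not pass the correction (limma adjusted p = 0.25). For this gene the response in *Trp53*+/+ B cells differed from that in *Trp53*+/+ non-B cells by -1.27 on the log2 scale (limma adjusted p = 0.00056). Without the samples with over 15% of receptor genes, which leaves 8.17 RPKM as the only irradiated B value and 27.2 as the only irradiated non-B value, this difference was -1.93 (limma adjusted p = 0.0033), and the log2 fold change in *Trp53*+/+ non-B cells was 0.54 (limma adjusted p = 0.22) in place of 0.05.

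*Bid* links death receptors to mitochondria and was the most abundant member in unstressed *Trp53*+/+ B cells. Its levels there were 35.9, 29.9, 34.3 and 27.7 RPKM, and 43.7, 39.2, 43.3 and 40.7 after IR. The groups did not overlap, yet the log2 fold change of 0.39 (standard error 0.08, limma adjusted p = 0.0018) was below the threshold on size. In *Trp53*-/- B cells the gene rose, from 30.1 and 28.0 RPKM to 55.7 and 49.8, with a log2 fold change of 0.85 (standard error 0.12, limma adjusted p = 0.00012). The 2 irradiated *Trp53*-/- samples were thus higher than all 4 irradiated *Trp53*+/+ samples. The difference between genotypes was -0.46 (limma adjusted p = 0.041) and did not hold under 5 other settings of the model or when 1 of 7 samples was left out, where the adjusted p rose to at most 0.20. *Bcl2l13*, on the other strand at the same place, had a log2 fold change of 0.01 in *Trp53*+/+ and of 0.31 in *Trp53*-/- B cells. Non-B cells had 29.2, 25.7, 20.6 and 22.2 RPKM of *Bid* unstressed and 25.4, 30.3, 23.5 and 22.3 after IR in *Trp53*+/+ mice, and 20.4, 21.3 and then 33.4, 22.9 in *Trp53*-/- mice, with no call.

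Among all genes, 13.1% were called up and 11.2% down after IR in *Trp53*-/- B cells, so that *Bid* up and *Bmf* down each made 1 of 7 members. For *Trp53*-/- non-B cells 0.193% of genes were called up and 0.250% down, and no member was, with *Bmf* the 1 member under 0.05 before adjustment. With 2 samples against 2 an exact permutation test cannot go below p = 0.333, so that calls in *Trp53*-/- cells rest on the spread that limma shares among the 12 samples of a cell type.

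*Bad* and *Bik* did not pass the test after IR in any of the 4 comparisons with mock samples. *Bad* stood between 7.73 and 14.6 RPKM in all 24 samples, and its log2 fold changes ran from -0.33 (95% interval -0.76 to 0.10) in *Trp53*-/- B cells to 0.14 (95% interval -0.15 to 0.43) in *Trp53*+/+ non-B cells. *Bik* stood between 0.386 and 2.45 RPKM, and its log2 fold changes ran from 0.19 (95% interval -0.42 to 0.81) in *Trp53*-/- non-B cells to 0.78 (95% interval 0.13 to 1.43, limma adjusted p = 0.056) in *Trp53*-/- B cells. The intervals of *Bik* were wide at these few reads, and changes of up to 0.86 in *Trp53*+/+ B cells are within them. In *Trp53*-/- B cells, where *Bik* went from 0.405 and 0.505 RPKM to 1.01 and 1.27, it was called under 4 other settings (adjusted p from 0.020 to 0.048) and without replicate 1 of the unstressed or replicate 2 of the irradiated *Trp53*+/+ B samples (adjusted p = 0.038 and 0.044, limma). *Gpr137*, which shares exons with *Bad* on the other strand, had a log2 fold change of -0.71 in *Trp53*+/+ B cells.

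*Hrk* was at the limit of detection. It had 10 reads over the 4 unstressed and 12 over the 4 irradiated *Trp53*+/+ B samples, and 12 and 23 over the corresponding non-B samples. The highest values, 0.241 RPKM in 1 irradiated B sample and 0.215 and 0.192 in 2 irradiated non-B samples, came from libraries with 36.6%, 24.6% and 51.2% of receptor genes above 0. In an exact permutation test of IR against mock, two-sided, the p for *Hrk* came to 0.60 for B samples and to 0.257 for non-B samples. A change was not detectable at this depth.

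**Figure D2:**
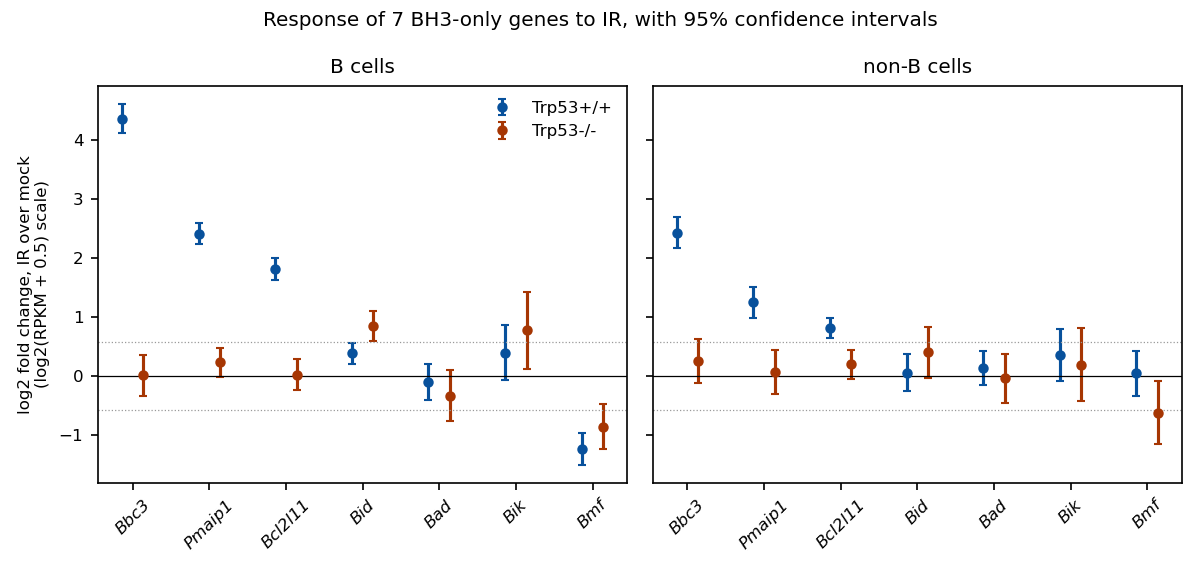
Log2 fold change of 7 BH3-only genes after IR over mock (y axis, log2(RPKM + 0.5) scale) in B and non-B cells, for *Trp53*+/+ (blue, n = 4 per group) and *Trp53*-/- mice (red, n = 2 per group), with 95% confidence intervals from limma and dotted lines at 0.58 and -0.58. The blue points of *Bbc3*, *Pmaip1* and *Bcl2l11* (4.36, 2.41 and 1.82 in B cells) lie apart from the red ones, and those of *Bmf* in B cells do not (-1.23 and -0.85).

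The same exact permutation test gave p = 0.0286, the smallest that 4 samples against 4 allow, for *Bbc3*, *Pmaip1*, *Bcl2l11*, *Bid* and *Bmf* in *Trp53*+/+ B cells and for *Bbc3*, *Pmaip1* and *Bcl2l11* in non-B cells. Full separation was common: it was seen in 46.2% of all genes tested in B cells and in 22.1% in non-B cells, beside 5 of 7 and 3 of 7 members.

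The cell types already differed before IR. In unstressed *Trp53*+/+ cells *Bbc3*, *Pmaip1* and *Bik* were lower in B than in non-B cells. For *Bbc3* the log2 difference was -1.49 (limma adjusted p = 3.3e-09), with group means of 3.38 ± 0.36 and 10.4 ± 1.27 RPKM (SD, n = 4 each). For *Pmaip1* it was -0.90 (limma adjusted p = 2.2e-06), and for *Bik* -0.82 (limma adjusted p = 0.0052). *Bcl2l11* had a difference of -0.51 (limma adjusted p = 0.00012), under the threshold on size. These 3 calls stand beside 24.6% of all 14598 genes called between the cell types. The call of *Bik* was lost with quantile normalization (-0.38, adjusted p = 0.081).

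After IR the differences of *Bbc3*, *Pmaip1* and *Bcl2l11* had the opposite sign. So had that of *Bmf*, which was 0.25 in unstressed cells (limma adjusted p = 0.22). *Bbc3* was at 78.7 RPKM in B and 58.03 in non-B cells, a log2 difference of 0.44 (limma adjusted p = 0.00034), and *Bcl2l11* at 53.1 and 37.6 RPKM, a difference of 0.49 (limma adjusted p = 8.3e-05), both under the threshold on size. *Pmaip1* was at 67.7 and 56.6 RPKM, a smaller difference of 0.26 (limma adjusted p = 0.031). With 1 sample left out its adjusted p rose to at most 0.107 (limma). Across the other settings run, the difference of *Pmaip1* ranged from 0.114 to 0.357. Called in irradiated cells were *Bid*, higher in B cells by 0.71 (limma adjusted p = 4.8e-05), *Bik*, lower by 0.78 (limma adjusted p = 0.0045), and *Bmf*, lower by 1.02 (limma adjusted p = 3.4e-05), beside 35.6% of all genes. Without the samples with over 15% of receptor genes, which left 1 irradiated sample of each cell type, the adjusted p was 0.14 for *Bid*, 0.34 for *Bik* and 0.28 for *Bbc3* (log2 difference 0.32). The difference of *Bcl2l11* was then 0.86 (limma adjusted p = 0.0013), past the threshold on size, and that of *Bmf* was -1.67 (limma adjusted p = 0.00091).

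The response itself was larger in B cells for 3 members. Tested as a difference of responses over the 16 *Trp53*+/+ samples, the log2 fold change of B cells exceeded that of non-B cells by 1.93 for *Bbc3* (standard error 0.12, limma adjusted p = 3.7e-07), by 1.16 for *Pmaip1* (standard error 0.14, limma adjusted p = 2.9e-05) and by 1.00 for *Bcl2l11* (standard error 0.12, limma adjusted p = 2.1e-05). In RPKM the gain of *Bbc3* was 75.3 in B and 47.6 in non-B cells, that of *Pmaip1* 55.4 and 33.0, and that of *Bcl2l11* 38.4 and 16.6, so that the order was the same on the linear scale. With *Bmf* these made 4 of 7 members with a different response, beside 28.0% of all genes. For *Bid* the difference was 0.33 (95% interval -0.01 to 0.67, limma adjusted p = 0.14).

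Between genotypes, 4 of 7 members differed in their response in B cells, beside 18.8% of all genes, and 3 of 7 in non-B cells, beside 7.35%. In unstressed cells no member was called between genotypes, beside 0.0506% of genes in the B and 0.0428% in the non-B fit. *Bbc3* had a log2 difference of -0.53 (*Trp53*-/- minus *Trp53*+/+) in unstressed B cells (95% interval -0.83 to -0.22, unadjusted p = 0.0026, limma adjusted p = 0.56) and *Pmaip1* one of -0.36 (unadjusted p = 0.0028, limma adjusted p = 0.59). In both genes the 2 unstressed *Trp53*-/- B samples lay under all 4 *Trp53*+/+ samples. *Bmf* had a difference of 0.47 (unadjusted p = 0.0091, limma adjusted p = 0.84), with both *Trp53*-/- samples over all 4 *Trp53*+/+ samples. At an unadjusted p under 0.05, these 3 members would count in B cells and none in non-B cells.

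**Figure D3:**
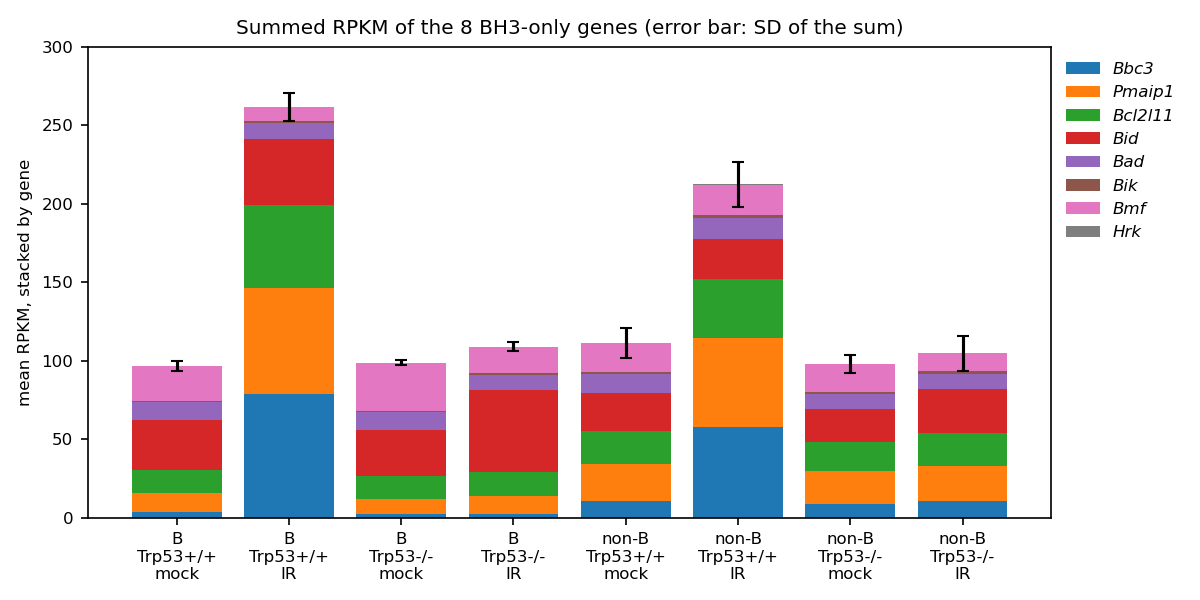
Mean RPKM of the 8 BH3-only genes stacked for each of the 8 groups (y axis, linear, from 0), with the SD of the sum as the error bar (n = 4 for *Trp53*+/+, n = 2 for *Trp53*-/-). The sum rises from 96.4 to 262 RPKM in *Trp53*+/+ B cells and from 111 to 212 in *Trp53*+/+ non-B cells, mostly through *Bbc3*, *Pmaip1* and *Bcl2l11* at the bottom of the bars.

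Since RPKM is scaled by gene length, the members can be set beside each other within a sample. The 8 genes together came to 96.4 ± 3.2 RPKM (SD, n = 4) in unstressed and 262 ± 9.0 in irradiated *Trp53*+/+ B cells, and to 111 ± 9.6 and 212 ± 14.4 in *Trp53*+/+ non-B cells. Sums of *Trp53*-/- groups were 98.8 and 109 RPKM for B samples and 97.96 and 105 for non-B samples (means of 2 samples). No sum of an irradiated *Trp53*+/+ sample was under 201 RPKM, and no other sample was above 123. The make-up changed as well. In unstressed *Trp53*+/+ B cells *Bid* held 33.1% ± 3.7 of the sum, *Bmf* 23.2% ± 3.7, *Bcl2l11* 15.2% ± 1.0, *Pmaip1* 12.8% ± 0.2 and *Bbc3* 3.51% ± 0.42 (SD, n = 4). After IR *Bbc3* held 30.1% ± 1.3, *Pmaip1* 25.9% ± 0.6 and *Bcl2l11* 20.2% ± 1.3, while *Bid* held 15.9% ± 0.6 and *Bmf* 3.56% ± 0.78. Unstressed *Trp53*+/+ non-B cells had a more even make-up, with 21.8% for *Bid*, 21.1% for *Pmaip1*, 18.96% for *Bcl2l11*, 16.7% for *Bmf* and 9.46% for *Bbc3*. Levels of RNA are compared here, and not those of the proteins.

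The order of the 8 groups by level shows the same grouping. For *Bbc3* irradiated *Trp53*+/+ B cells came first and irradiated *Trp53*+/+ non-B cells second, without overlap between their samples, followed by the other 3 non-B groups at 8.63 to 10.5 RPKM, which overlapped with each other, and by the other 3 B groups at 2.19 to 3.38 RPKM. For *Pmaip1* the first 2 groups (67.7 and 56.6 RPKM) overlapped in their samples, and the other non-B groups (21.2 to 23.6 RPKM) lay over the other B groups (9.50 to 12.3 RPKM). For *Bmf* unstressed *Trp53*-/- B cells came first at 30.9 RPKM, without overlap with the next group, and irradiated *Trp53*+/+ B cells last at 9.27 RPKM.

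Over the 24 samples, on log2(RPKM + 0.5), *Bbc3* and *Pmaip1* were each other's closest gene among 14688 genes (Pearson r = 0.987). Next came *Dennd2c* and *Acad8* for both, with r = 0.986 and 0.979 for *Bbc3* and 0.986 and 0.980 for *Pmaip1*. For *Bcl2l11* the closest were *Slc25a42* (r = 0.979), *Dennd2c* (r = 0.978) and *Tnfrsf10b*, a death receptor gene (r = 0.977). Among the genes closest to *Bmf* were *5031439G07Rik* (r = 0.914) and *Agpat9* (r = 0.895). These values describe a pattern across 24 samples of 8 groups, in which the groups set most of the variation, and the points share libraries and treatment. *Bbc3* and *Bmf* had r = -0.599, and *Bbc3* and *Bid* r = -0.029.

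The pro-survival genes encode the proteins that BH3-only members bind and block. Of 8 pro-survival genes 7 were tested, and in *Trp53*+/+ B cells 3 rose and 1 fell (median log2 fold change 0.18, all genes 0.01). The largest changes were those of *Bcl2l1*, which encodes Bcl-xL (0.97, limma adjusted p = 0.0093), *Bcl2a1d* (0.92, limma adjusted p = 0.00031) and *Bcl2a1b* (0.70, limma adjusted p = 0.00012). *Bcl2a1d* and *Bcl2a1b* are near-identical copies that encode A1, so that their reads may be divided between them, and they also rose in *Trp53*-/- B cells (1.23 and 0.64, limma adjusted p = 0.00071 and 0.0040). None of the 7 was called in *Trp53*+/+ non-B cells (median 0.26, all genes -0.03) or *Trp53*-/- non-B cells. The sum of the BH3-only genes divided by the sum of the 8 pro-survival genes, both in RPKM, was 0.410 ± 0.026 in unstressed and 0.997 ± 0.035 in irradiated *Trp53*+/+ B cells (SD, n = 4), and 0.521 ± 0.047 and 0.868 ± 0.026 in non-B cells. It lay, irradiated or not, in *Trp53*-/- samples between 0.384 and 0.528.

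Of the pore-forming effectors 2 of 3 were tested, and 1 of 2 rose in *Trp53*+/+ cells of both types. This was *Bax*, from 29.5 ± 2.5 to 112 ± 5.0 RPKM in B cells (SD, n = 4; log2 fold change 1.91, limma adjusted p = 9.1e-10) and from 26.9 ± 2.5 to 77.1 ± 2.8 RPKM in non-B cells (log2 fold change 1.51, limma adjusted p = 1.9e-07). In *Trp53*-/- cells its log2 fold change was 0.56 in B and 0.39 in non-B cells, both under the threshold on size, and the genotypes differed by 1.36 and 1.11 (limma adjusted p = 1.3e-05 and 0.00056).

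Among 10 genes of the apoptosome and caspases, 1 rose and 2 fell in *Trp53*+/+ B cells (median 0.20, all genes 0.01) and 1 rose in non-B cells (median -0.14). *Apaf1*, the scaffold of the apoptosome, rose in both, by 2.05 in B cells (limma adjusted p = 1.7e-10) and by 1.37 in non-B cells (limma adjusted p = 2.6e-05), and fell in *Trp53*-/- B cells (-0.90, limma adjusted p = 9.8e-06). *Casp9*, the caspase that binds Apaf1, fell in B cells of both genotypes, by 1.54 and by 1.02 on the log2 scale (limma adjusted p = 9.2e-08 and 0.00011). *Casp6*, an executioner caspase, also fell in B cells of both genotypes, by 0.90 and by 0.83 on the log2 scale (limma adjusted p = 2.4e-05 and 0.00099). *Apaf1* had 13.04 ± 0.55 RPKM in unstressed and 55.7 ± 3.7 in irradiated *Trp53*+/+ B cells (SD, n = 4), in the same range as *Bcl2l11*, whereas *Casp9* went from 14.6 ± 1.2 to 4.68 ± 0.49 RPKM.

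Of 17 other regulators of BH3-only genes and proteins, 2 rose and none fell in *Trp53*+/+ B cells (median 0.10), and none was called in *Trp53*+/+ non-B cells (median -0.02). *Foxo3*, a transcription factor known to act on *Bcl2l11* and *Bbc3*, rose from 26.6 ± 2.5 to 66.2 ± 2.7 RPKM in *Trp53*+/+ B cells (SD, n = 4; log2 fold change 1.30, limma adjusted p = 2.9e-08) and fell in *Trp53*-/- B cells (-0.76, limma adjusted p = 9.5e-05). In *Trp53*+/+ non-B cells it was not called, though it had 40.8 ± 2.7 RPKM unstressed and 60.7 ± 7.3 after IR without overlap (SD, n = 4). *Trp53*-/- non-B cells had means of 33.9 and 28.8 RPKM. The other was *Ddit3*, which encodes the stress factor CHOP, with 0.585 in *Trp53*+/+ B cells (limma adjusted p = 1.9e-05), at the very threshold, and 0.56 in *Trp53*-/- B cells.

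**Figure D4:**
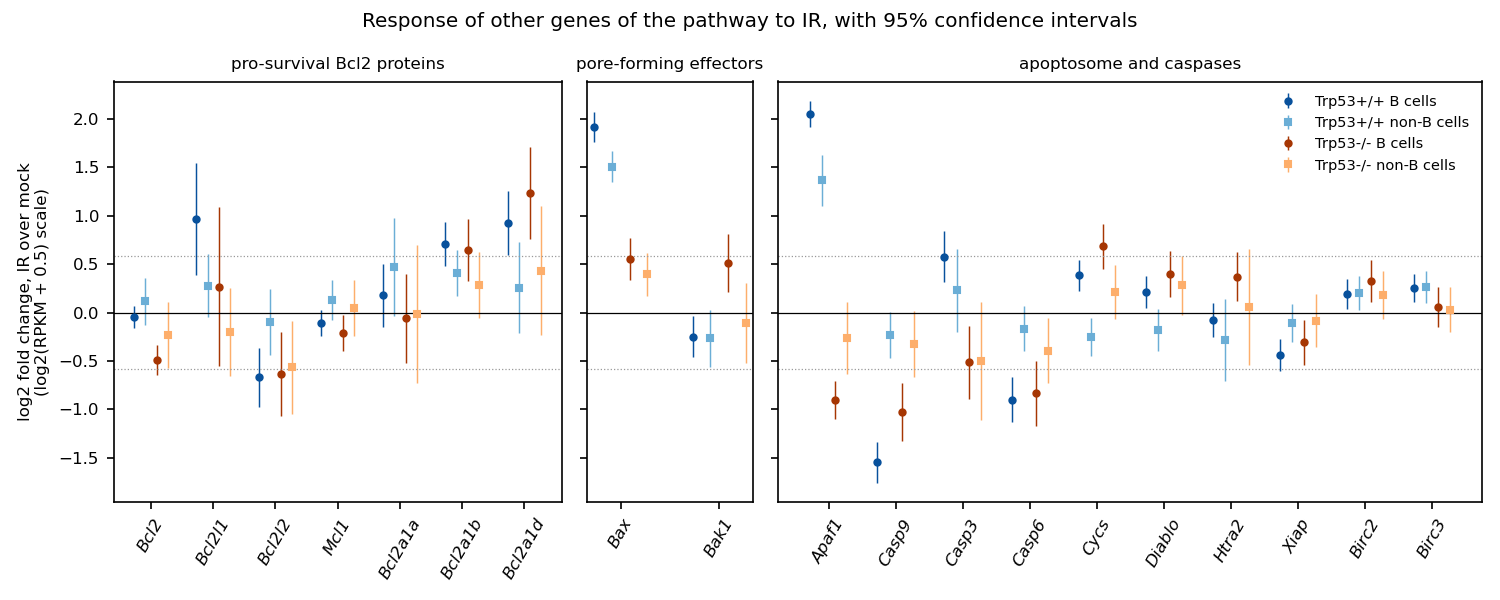
Log2 fold change after IR over mock (y axis, log2(RPKM + 0.5) scale) of the tested pro-survival, pore-forming, apoptosome and caspase genes in the 4 combinations of genotype and cell type, with 95% confidence intervals from limma and dotted lines at 0.58 and -0.58. *Bax* and *Apaf1* are the only genes shown whose *Trp53*+/+ points exceed 1 in both cell types (1.91 and 1.51, 2.05 and 1.37).

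Markers of other cells moved with IR beside these results. Erythroid markers fell in *Trp53*+/+ cells, 3 of 7 in B cells (median log2 fold change -1.44) and 4 of 7 in non-B cells (median -1.83), with summed RPKM of 65.0 to 137 in unstressed and 34.7 to 45.1 in irradiated B samples and of 131 to 310 and 32.5 to 81.7 in non-B samples. No erythroid marker was called in *Trp53*-/- cells. T cell markers in non-B samples of *Trp53*+/+ mice summed to 326 to 477 RPKM unstressed and to 271 to 361 after IR, and B cell markers to 314 to 501 and 219 to 455, with 1 of 7 T cell markers called lower and no B cell marker called. Of 6 monocyte and macrophage markers 1 was lower after IR in *Trp53*+/+ B cells (242 to 319 summed RPKM unstressed, 176 to 270 irradiated) and 1 higher in *Trp53*+/+ non-B cells (294 to 353 and 328 to 482), 1 was higher in *Trp53*-/- B cells (222 to 237 and 132 to 225), and 3 of 6 differed in their response between these cell types. Of 4 megakaryocyte markers 1 was called lower in *Trp53*-/- non-B cells (median -1.21; 47.3 and 63.7 summed RPKM unstressed, 16.8 and 25.3 irradiated). In *Trp53*+/+ B cells 1 of 7 T cell markers was called lower, and 1 of 4 plasma cell and 1 of 4 dendritic cell markers higher. In *Trp53*-/- B cells 1 of 4 plasma cell markers was called lower. No neutrophil or NK cell marker was called after IR. The part of these shifts in the levels of the BH3-only genes was not tested.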

How the data were processed

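Total RNA depleted of ribosomal RNA was sequenced from unstranded libraries. Per the study's methods, the authors masked bases of low quality, used TopHat for the alignment to mm9, collapsed duplicate reads to 1, assigned them to UCSC genes with featureCounts and scaled the result to gene length and to reads on exons. The submitters' processing notes name TopHat2 2.0.8 and featureCounts 1.4.5. The deposited values are RPKM with 3 decimals. Since duplicates were collapsed, high values may be compressed. The study called genes from counts with a count model, and RPKM is no count, so limma 3.58.1 (R 4.3.3, eBayes with a mean-variance trend) was used on log2(RPKM + 0.5), which understates the change of low genes. Each cell type was fitted with 4 group means over 12 samples, and the cell types were compared over the 16 *Trp53*+/+ samples, 11 comparisons in all. A gene was tested if its RPKM exceeded 1 in any *Trp53*+/+ sample of the fit. Calls needed an adjusted p under 0.05 and, except for differences of responses, a log2 fold change beyond 0.58 in either direction.

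Members, lists and tests were chosen with earlier results of these data known. The named genes are all members, *Trp53*, up to 3 called genes of each list by size, and the 3 genes most correlated with each member called after IR; *Bcl2l13* and *Gpr137* were added for their overlap. One gene of the apoptosome and caspase list, left out of its counts after its values were seen, and one gene correlated with *Bmf* are not reported here. Of the genes on the lists, 3 were not found under their symbols. Reads were estimated with exonic lengths of GENCODE (NCBIM37), found for 91.9% of genes; 56.3% to 70.8% of low values lay within 0.1 of a whole read, against 20.0% by chance. The fits were tested on simulated data with known changes first. Of log2 changes of 0.8, 86% were recovered after IR in *Trp53*+/+ and 76.2% in *Trp53*-/- B cells. For the genotype difference in B cells 43.1% were recovered, so that an uncalled difference of this size may be missed. The remaining steps ran in Python 3.11.15 (numpy 2.4.6, pandas 2.3.3, scipy 1.17.1 and matplotlib 3.10.9).

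Samples are labelled as separate replicates. The study's methods give 4 *Trp53*+/+ and 2 *Trp53*-/- mice for each condition, as many as there are samples in a group, so that B and non-B samples may share mice, but which samples do is not given in the labels; p-values measure the spread between these samples. No 2 libraries were identical. Replicate numbers recur across groups. Deviations of unstressed and irradiated *Trp53*+/+ non-B samples of the same number correlated at 0.16 to 0.32 across genes. Samples of different number reached 0.30 (unstressed 2, irradiated 1) and 0.31 (unstressed 3, irradiated 4), and others went down to -0.37. Replicates 1 and 2 thus went together, as did 3 and 4, and pairing by number is not shown by these values. Same-numbered B samples correlated at 0.02 to 0.09. Same-numbered B and non-B samples correlated at -0.10 to 0.35, over 0.1 in 6 of 12 pairs. The source of these correlations is not given in the labels. Alternatives covered pseudocounts of 0.1 and 1, filters, scaling, the replicate block, the receptor covariate, thresholds and leaving out each sample.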

Additional observations from a re-analysis of the deposited data

Results flagged for a closer look

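In *Trp53*+/+ groups of 4 samples, 1 sample stood far from the other 3 in 6 of 32 sets of member and group, where chance flags about 1 in 20. These were *Pmaip1* at 12.8 RPKM (replicate 1), *Bcl2l11* at 16.2 RPKM (replicate 4) and *Bmf* at 27.9 RPKM (replicate 4) in unstressed B cells, *Bcl2l11* at 21.8 RPKM (replicate 1) in unstressed non-B cells, and *Bmf* at 11.9 RPKM (replicate 2) and *Hrk* at 0.241 RPKM (replicate 1) in irradiated B cells. The gaps were small for *Pmaip1* and *Bcl2l11*, whose groups are tight.

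Responses that differed between genotypes were those of *Bbc3* (4.34 on the log2 scale in B cells, 2.17 in non-B cells), *Pmaip1* (2.17 and 1.18), *Bcl2l11* (1.79 and 0.62) and *Bid* (-0.46 in B cells). Responses that differed between *Trp53*+/+ B and non-B cells were those of *Bbc3* (1.93), *Pmaip1* (1.16), *Bcl2l11* (1.00) and *Bmf* (-1.27). All were tested as differences with limma over all genes, as given in the results.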

How the results depend on the processing

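Counts of called members were recomputed for each of the 11 comparisons under up to 16 planned settings and with each sample left out, and 294 of 299 such counts stayed within 1.5 times the reported one. The exceptions all concern the threshold on the log2 fold change. Without it, 6 members were called between irradiated B and non-B cells and 5 between unstressed ones; with a threshold of 1, there was 1 in each, and there were 0 after IR in *Trp53*-/- B cells, where *Bid* and *Bmf* lie between 0.58 and 1. Of 1561 values of single members, 1496 kept direction and call, 32 lost and 13 gained the call, and 20 changed sign. The sign changed only for values near 0 that were not called. With another setting these were, on the log2 scale, *Bad* in *Trp53*-/- non-B cells (0.041 with quantile normalization) and *Bad* in *Trp53*+/+ B cells (0.13 with the receptor covariate in the model, 0.061 without the samples over 15%). In *Trp53*-/- B cells they were *Bbc3* (-0.032 with median-ratio scaling, -0.003 with the receptor covariate) and *Bcl2l11* (-0.023 with median-ratio scaling, -0.024 with quantile normalization). With 1 sample left out, *Bad* ranged from -0.24 to 0.18 in *Trp53*-/- non-B and from -0.19 to 0.028 in *Trp53*+/+ B cells, *Bbc3* from -0.24 to 0.26 and *Bcl2l11* from -0.13 to 0.18 in *Trp53*-/- B cells, *Bid* from -0.028 to 0.15 and *Bmf* from -0.12 to 0.14 in *Trp53*+/+ non-B cells, and *Bik* from -0.0024 to 0.39 and *Pmaip1* from -0.037 to 0.17 in *Trp53*-/- non-B cells. The cause was not tested.

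The replicate block left 4 members called after IR in *Trp53*+/+ B cells, 3 in *Trp53*+/+ non-B cells, 2 in *Trp53*-/- B cells and 0 in *Trp53*-/- non-B cells, as without it, and changed no other call of a member. In *Trp53*-/- non-B cells same-numbered samples deviated in opposite directions (correlation -0.25), and a crossed pairing, chosen after seeing the data, gave 152 genes called against 17 with the numbers as labelled and 62 with no block, with no member among them. The median of all genes shifted by over 0.1 only with no filter, for the genotype difference in B cells (by 0.12, from -0.06 to 0.06). Depth limits *Bik* and *Hrk*, for which 1 read is worth up to 0.224 and 0.0394 RPKM.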
